A study of Mus musculus with 25 samples.

Results

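The genes described here are 10 genes typical of atrial muscle: Myl4, Myl7, Sln, Bmp10, Dkk3, Gja5, Kcnj3, Kcnj5, Nr2f2 and Tbx5. They are 10 of the 56941 genes in the count table, each matched to a single row by its Ensembl identifier. They were chosen by their measured levels in these hearts, as atrial genes that differ among saline hearts and are low in others, so their levels in saline hearts against the rest are described without p-values, and their calls in those contrasts are counted only beside the share of all genes called. The study sequenced RNA of 25 mouse hearts, 1 library per heart, across 2 genotype labels (WT and MCT1KO) and 3 treatments. Hearts without a pump numbered 4 WT and 3 MCT1KO. Hearts labelled saline numbered 6 WT and 4 MCT1KO. Hearts labelled Ang/PE numbered 3 WT and 5 MCT1KO. The gene Slc16a1 encodes MCT1, which carries lactate, pyruvate and ketone bodies across membranes. The labels do not say in which cells it was deleted or by which allele. They give neither strain, sex, age, the agents and doses behind the name Ang/PE, nor how long a pump ran. The tissue is given as heart, with no word on which chambers were taken. All 10 genes passed the filter on low counts, and for Myl7, Sln and Bmp10 saline hearts alone carried them past it.

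Atrial and ventricular muscle share most of their contractile machinery but differ in some isoforms. The atria use their own essential and regulatory myosin light chains, restrain the calcium pump of the sarcoplasmic reticulum with sarcolipin, and carry a potassium current opened by acetylcholine that slows the beat. Transcription factors such as Nr2f2 and Tbx5 take part in setting up and keeping this atrial programme, while healthy adult ventricle has very little of the atrial light chains.

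Library totals ran from 12216704 to 24880683 counts. Values are CPM, the usual scaling of counts by library size, here adjusted for composition, and 3 counts in a library corresponded to 0.134 to 0.274 CPM. Slc16a1 was read in every heart, at 150 to 249 CPM in WT hearts and 132 to 223 CPM in hearts labelled MCT1KO, so its counts did not separate the labels. Xist, an RNA made from the inactive X chromosome, was above 100 CPM in 13 hearts. Among saline hearts these were WT 6 and MCT1KO 1, 2 and 3. MCT1KO saline 4 stood apart from all other libraries in the genes below, so the fold of Myl4, the medians over gene lists, the highest levels of the listed genes named and the genotype differences are also given without it. Mitochondrially encoded genes took 14.8% and 17.3% of the counts in WT saline 1 and MCT1KO saline 3, the saline hearts lowest in Myl4, Myl7 and Sln, and 8.94% to 12.04% in the other 8; their part in the levels below was not tested. In RNA of whole tissue, fewer cells of a type and less RNA per cell cannot be told apart.

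Myl4 (ENSMUSG00000061086), the atrial essential light chain of myosin, was at 1.67, 1.51, 1.70 and 1.45 CPM in the WT hearts without a pump and at 1.62, 1.52 and 1.65 CPM in the MCT1KO ones. Under Ang/PE it was at 1.85, 1.82 and 1.43 CPM in WT hearts and at 2.01, 5.44, 1.99, 4.03 and 2.52 CPM in MCT1KO hearts. In the WT saline hearts 1 to 6 it was at 1.45, 11.2, 297, 611, 80.0 and 275 CPM. The MCT1KO saline hearts 1 to 4 had 372, 331, 1.498 and 1973 CPM. Of the saline hearts 8 lay above all 15 others, and WT saline 1 and MCT1KO saline 3 lay among them. The highest saline heart was 1163-fold above the median of the other 15, and the next highest, WT saline 4, 360.3-fold.

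Myl7 (ENSMUSG00000020469), the atrial regulatory light chain, was close to absent outside the saline group. It gave 0 to 16 counts in the other 15 hearts, with 11 of them at 3 counts or fewer and a highest level of 0.784 CPM in MCT1KO no pump 1. The WT saline hearts 1 to 6 had 0.465, 4.57, 131, 379, 50.04 and 178 CPM. In the MCT1KO saline hearts 1 to 4 it was at 237, 244, 0 and 1355 CPM. MCT1KO saline 3, with 0 counts and a limit of 0.187 CPM that such a count allows, was the lowest saline heart, and MCT1KO saline 4, with 23004 counts, the highest.

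Sln (ENSMUSG00000042045) encodes sarcolipin, the small membrane protein that inhibits the calcium pump. The other 15 hearts had at most 2 counts each, and 10 of them had 0. The 6 WT saline hearts had 0.116, 2.63, 77.9, 145, 16.8 and 64.9 CPM in order of replicate, and the MCT1KO ones 85.0, 67.3, 0 and 347 CPM. The same 8 saline hearts as for Myl4 and Myl7 were above all 15 others. No fold is given for Myl7 or Sln, since the other groups are at or near the limit of 3 counts.

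**Figure D1:**
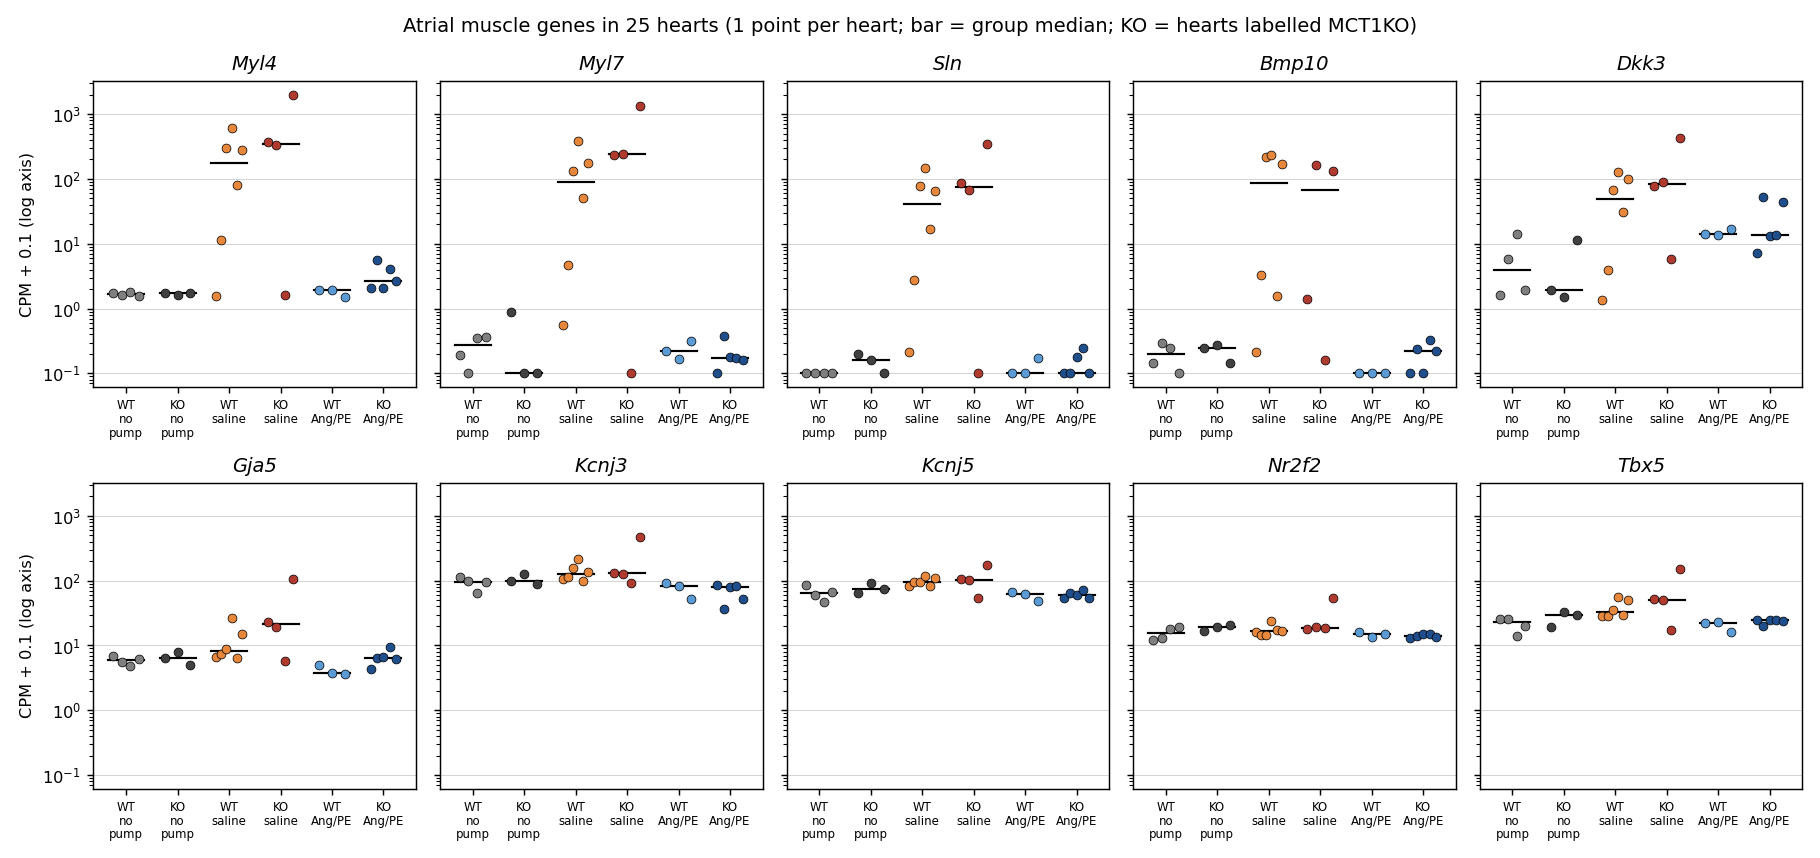
Levels of the 10 genes in CPM, plotted as CPM + 0.1 on a log axis, with 1 point per heart in 6 groups and the group median as a bar. Myl4, Myl7, Sln and Bmp10 spread widely within both saline groups. Elsewhere Myl7, Sln and Bmp10 sit near the floor and Myl4 at 1.43 to 5.44 CPM, while Kcnj3 and Kcnj5 are read in every heart and vary less.

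The 3 genes varied together from heart to heart among the saline samples. Over the 7 saline hearts with at least 200 Myl7 counts, the ratio of Myl4 to Myl7 CPM ran from 1.36 to 2.28, with a median of 1.57 and a coefficient of variation of 18.3%. Sln per Myl7 ran from 0.256 to 0.597 with a median of 0.359. WT saline 3 was highest in both ratios. Levels of Myl7 itself spanned 50.04 to 1355 CPM in these hearts, so the proportions among the 3 transcripts varied far less than their amount.

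Per length, using 590 bases for the principal Myl7 transcript and 889 for that of the ventricular regulatory light chain Myl2, Myl7 made up 70.9% of the sum of both genes in MCT1KO saline 4. The shares in the WT saline hearts were 0.0157%, 0.142%, 4.49%, 12.9%, 1.85% and 7.08%. In MCT1KO saline 1, 2 and 3 they were 9.21%, 9.53% and 0%. Every one of the other 15 hearts was at or under 0.0238%. Myl4 as a share of Myl4 and the ventricular essential chain Myl3, per 943 and 937 bases, was 76.8% in MCT1KO saline 4, 0.0437% to 16.4% in the other 9 saline hearts, and at most 0.158% in the other 15. MCT1KO saline 4 was also low in the ventricular chains themselves, with Myl2 at 838 CPM and Myl3 at 591 CPM. Over the other saline hearts Myl2 lay between 3485 and 5498 CPM, and over the other 15 hearts between 3658 and 5641 CPM. Below all 15 were 4 saline hearts, MCT1KO saline 4 among them.

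**Figure D2:**
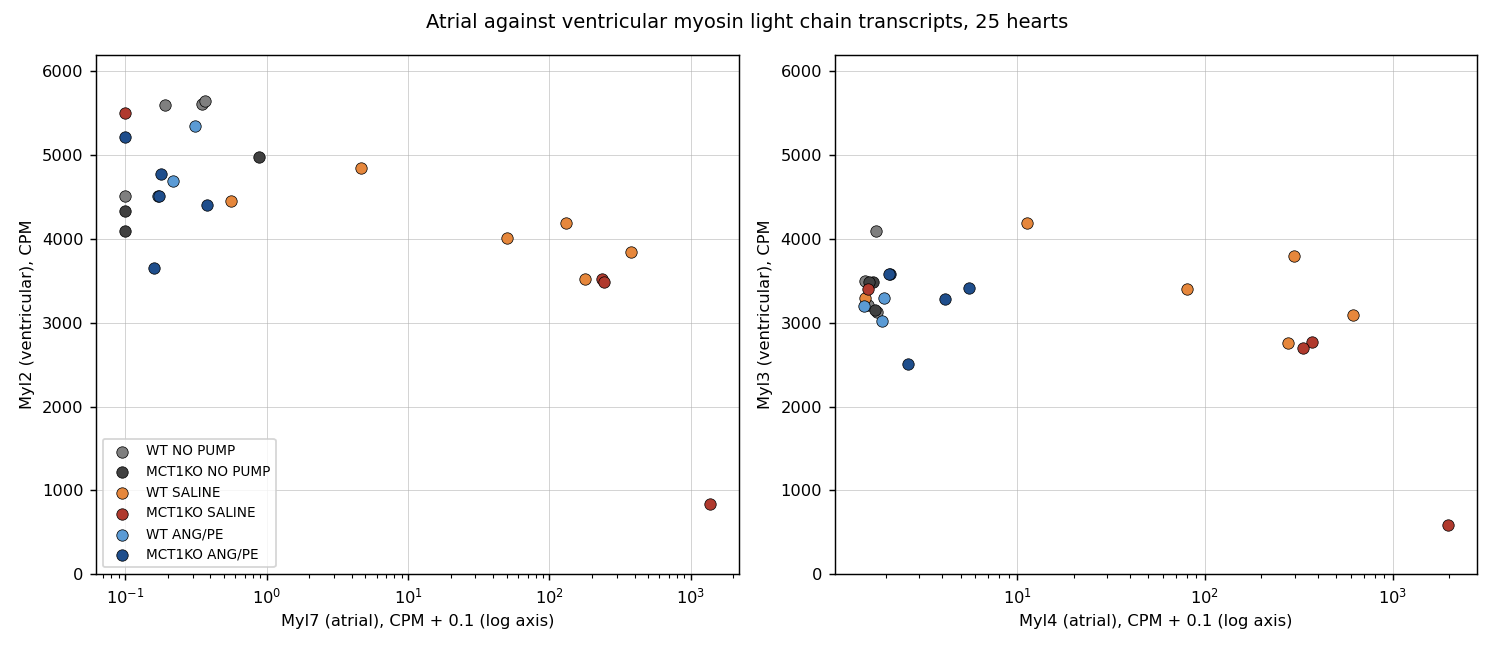
Atrial light chains on the horizontal log axis (CPM + 0.1) against their ventricular counterparts on the vertical axis (CPM), 1 point per heart, coloured by group. MCT1KO saline 4, at 1355 CPM of Myl7 and 838 CPM of Myl2, lies apart from the other 24 hearts in both panels.

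Bmp10 (ENSMUSG00000030046) encodes a secreted ligand of the BMP family that, in the adult mouse, is made mainly by muscle of the right atrium and acts on endothelium. The other 15 hearts had 0 to 4 counts, 14 of them at 3 or fewer. The WT saline hearts 1 to 6 had 0.116, 3.26, 217, 236, 1.47 and 169 CPM, and the MCT1KO saline hearts 1 to 4 had 1.32, 167, 0.0624 and 133 CPM. Bmp10 thus fell into a high set of 5 hearts at 133 to 236 CPM and a low set of 5 at 0.0624 to 3.26 CPM, with none between. The low set held WT saline 5 and MCT1KO saline 1, whose Myl7 was at 50.04 and 237 CPM. MCT1KO saline 4, highest in the other 9 genes, was lowest of the high set in Bmp10.

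The ratio of Bmp10 to Myl7 CPM over the 7 hearts ran from 0.00557 in MCT1KO saline 1 to 1.66 in WT saline 3, a 298-fold range, against 1.68-fold for Myl4, 2.33-fold for Sln and 1.90-fold for Dkk3. MCT1KO saline 1 and 2 were the most alike of the 43 replicate pairs in the series, with a chi-square per degree of freedom of 3.33 against a median of 23. Bmp10 gave 25 counts in the former and 2551 in the latter, a 126-fold difference with an exact 95% interval of 85.4 to 196 that covers counting error only. No other of the 14612 genes compared differed as much between these libraries, and the next, Tpm3-rs7, differed 22.1-fold. The other 9 atrial genes differed 0.792- to 1.155-fold. This pair and Tpm3-rs7 were picked after their values had been seen, so the difference describes these libraries.

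**Figure D3:**
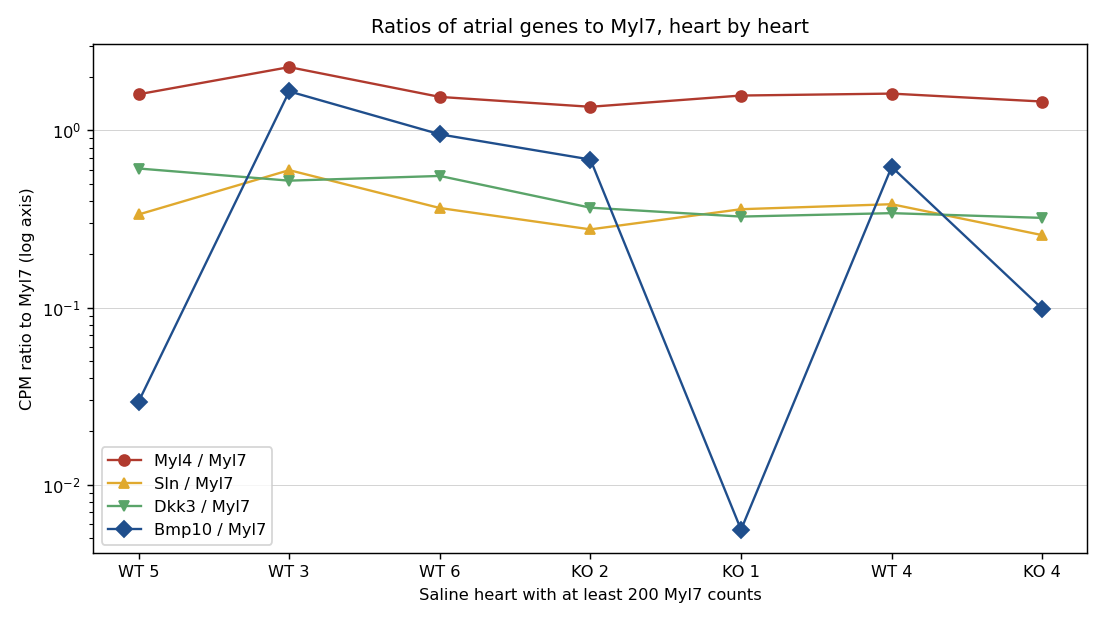
CPM of Myl4, Sln, Dkk3 and Bmp10 divided by CPM of Myl7 on a log axis, in the 7 saline hearts with at least 200 Myl7 counts, in order of the mean log2 CPM of Myl4, Myl7 and Sln. The ratios of Myl4, Sln and Dkk3 stay within 1.68- to 2.33-fold, while Bmp10 drops to 0.0295 in WT 5 and 0.00557 in MCT1KO 1.

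The 250 bases upstream of the annotated start of Myl7, Bmp10 and Kcnj3 are printed. Myl7 is a light chain, Bmp10 the ligand that departs from the light chains, and Kcnj3 a channel read in every heart. These genes were picked after the values had been seen, and whether sequence has a part in their patterns was not tested. The sequences come from RefSeq windows of the build GRCm38.p6, not the build of the counts, and 7 of the 10 genes had an entry. Capitals mark matches to GATAA and to the CArG box, the binding motifs of GATA factors and of serum response factor. Myl7 lies at chr11:5898783-5899032 on the minus strand, Bmp10 at chr6:87428744-87428993 on the plus strand and Kcnj3 at chr2:55435720-55435969 on the plus strand.
Myl7: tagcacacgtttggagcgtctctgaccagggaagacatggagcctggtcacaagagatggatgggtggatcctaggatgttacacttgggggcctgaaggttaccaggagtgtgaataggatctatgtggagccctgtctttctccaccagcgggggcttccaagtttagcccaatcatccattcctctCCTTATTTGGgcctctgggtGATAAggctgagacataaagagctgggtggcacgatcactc
Bmp10: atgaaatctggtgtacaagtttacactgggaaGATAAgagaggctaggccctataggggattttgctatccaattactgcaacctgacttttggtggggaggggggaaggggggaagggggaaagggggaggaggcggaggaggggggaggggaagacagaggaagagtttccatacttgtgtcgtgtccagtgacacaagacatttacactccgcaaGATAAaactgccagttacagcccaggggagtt
Kcnj3: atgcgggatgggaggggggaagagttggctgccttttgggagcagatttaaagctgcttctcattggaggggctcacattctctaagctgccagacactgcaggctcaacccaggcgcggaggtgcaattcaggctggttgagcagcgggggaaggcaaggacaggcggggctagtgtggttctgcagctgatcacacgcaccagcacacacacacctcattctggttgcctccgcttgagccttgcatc
The Myl7 window holds a CArG box at −61 to −52 and GATAA at −41 to −37 from the start. Bmp10 holds GATAA at −218 to −214 and at −32 to −28, and the Kcnj3 window has no match to a searched motif. Searched on both strands, with overlaps allowed, a CArG box occurs in 1.47% and GATAA in 22.6% of 32851 such windows. GGTGTGA (a T-box motif, in 3.33%), TATAAA (in 12.4%) and the MEF2 box (in 1.69%) were in none of the 7 windows. These matches are letters in a window, not measured binding.

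Dkk3 (ENSMUSG00000030772), a secreted protein related to the dickkopf inhibitors of Wnt signalling, was read in every heart. Hearts without a pump had 1.53, 5.74, 13.8 and 1.82 CPM in WT and 1.86, 1.40 and 11.2 CPM in MCT1KO. The Ang/PE values were 13.8, 13.5 and 16.7 CPM in WT hearts and 7.12, 52.6, 13.2, 13.7 and 44.4 CPM in MCT1KO hearts. In WT saline hearts it ran from 1.28 to 129 CPM with a median of 49.2, and in MCT1KO saline hearts it was at 77.2, 89.2, 5.68 and 435 CPM. Dkk3 therefore also spread outside the saline group, where Myl7 stayed below 1 CPM, and 6 saline hearts exceeded all 15 others.

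Gja5 (ENSMUSG00000057123) encodes connexin 40, a gap junction channel of atrial muscle, the ventricular conduction fibres and arterial endothelium. It was at 3.50 to 9.26 CPM in the other 15 hearts. WT saline hearts ran from 6.29 to 26.3 CPM with a median of 8.02, and MCT1KO saline hearts had 22.8, 19.4, 5.74 and 107 CPM. WT saline 4 and 6 and MCT1KO saline 1, 2 and 4 lay above all 15 others, a subset of the hearts high in Myl7.

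Kcnj3 (ENSMUSG00000026824) and Kcnj5 (ENSMUSG00000032034) encode the 2 subunits of the acetylcholine-gated potassium channel. Kcnj3 was at 37.0 to 127 CPM in the other 15 hearts, at 97.5 to 213 CPM with a median of 126 in WT saline hearts, and at 132, 128, 91.8 and 465 CPM in MCT1KO saline hearts. Kcnj5 was at 46.5 to 91.1 CPM in the other 15 hearts, at 81.1 to 117 CPM with a median of 94.4 in WT saline hearts, and at 104.5, 103, 54.2 and 172 CPM in MCT1KO saline hearts. Both channel genes were far from absent outside saline hearts, and 6 saline hearts for Kcnj3 and 7 for Kcnj5 exceeded all 15 others.

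The rest of the current's pathway was followed in a list of 7 genes that includes both subunits. Chrm2, the muscarinic receptor that opens the channel, was at 81.7 to 167 CPM in the other 15 hearts. In saline hearts it was at 117 to 234 CPM, and at most 189.8 CPM without MCT1KO saline 4. Adora1, an adenosine receptor acting on the same channel, reached 26.0 CPM in MCT1KO saline 4 and at most 20.98 CPM in the other 9 saline hearts, against at most 16.3 CPM in the other 15. Rgs6, which speeds closing of the channel, reached 45.2 CPM there and at most 35.1 CPM in the other 9, against 31.0 CPM. Rgs4, another regulator of G protein signalling, went the other way (r = −0.762), from 10.6 CPM to 18.7 CPM in MCT1KO saline 3, and Gnb5 had r = 0.251. Over the list the median correlation with the mean log2 CPM of Myl4, Myl7 and Sln was 0.601 across the 10 saline hearts, beside −0.00719 for all 17682 tested genes. Without MCT1KO saline 4 these medians were 0.487 and −0.00288.

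Nr2f2 (ENSMUSG00000030551), an orphan nuclear receptor, is required for atrial identity of heart muscle and is also made in veins. It was at 11.9 to 20.4 CPM in the other 15 hearts, at 14.2 to 23.4 CPM with a median of 16.5 in WT saline hearts, and at 17.7, 19.2, 18.5 and 53.9 CPM in MCT1KO saline hearts. WT saline 4 and MCT1KO saline 4 were the 2 saline hearts above all others, the fewest for any of the 10 genes. Tbx5 (ENSMUSG00000018263), a T-box factor that drives atrial gene expression, was at 13.97 to 33.0 CPM in the other 15. It ran from 28.4 to 56.2 CPM with a median of 32.2 in WT saline hearts and was at 51.2, 50.8, 17.4 and 152 CPM in MCT1KO saline hearts, with 6 saline hearts above all others. Per kilobase of the principal transcript, the medians of the other 15 hearts put Kcnj3 (16.3 CPM per kb) and Kcnj5 (13.6) highest, then Tbx5 (5.92), Dkk3 (3.93) and Nr2f2 (3.50). Gja5 (1.95) and Myl4 (1.80) followed, with Myl7 (0.135), Bmp10 (0.0100) and Sln (0) at the bottom. In the highest saline heart of each gene the order was led by Myl7 (2297 CPM per kb), Myl4 (2092) and Sln (264).

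**Figure D4:**
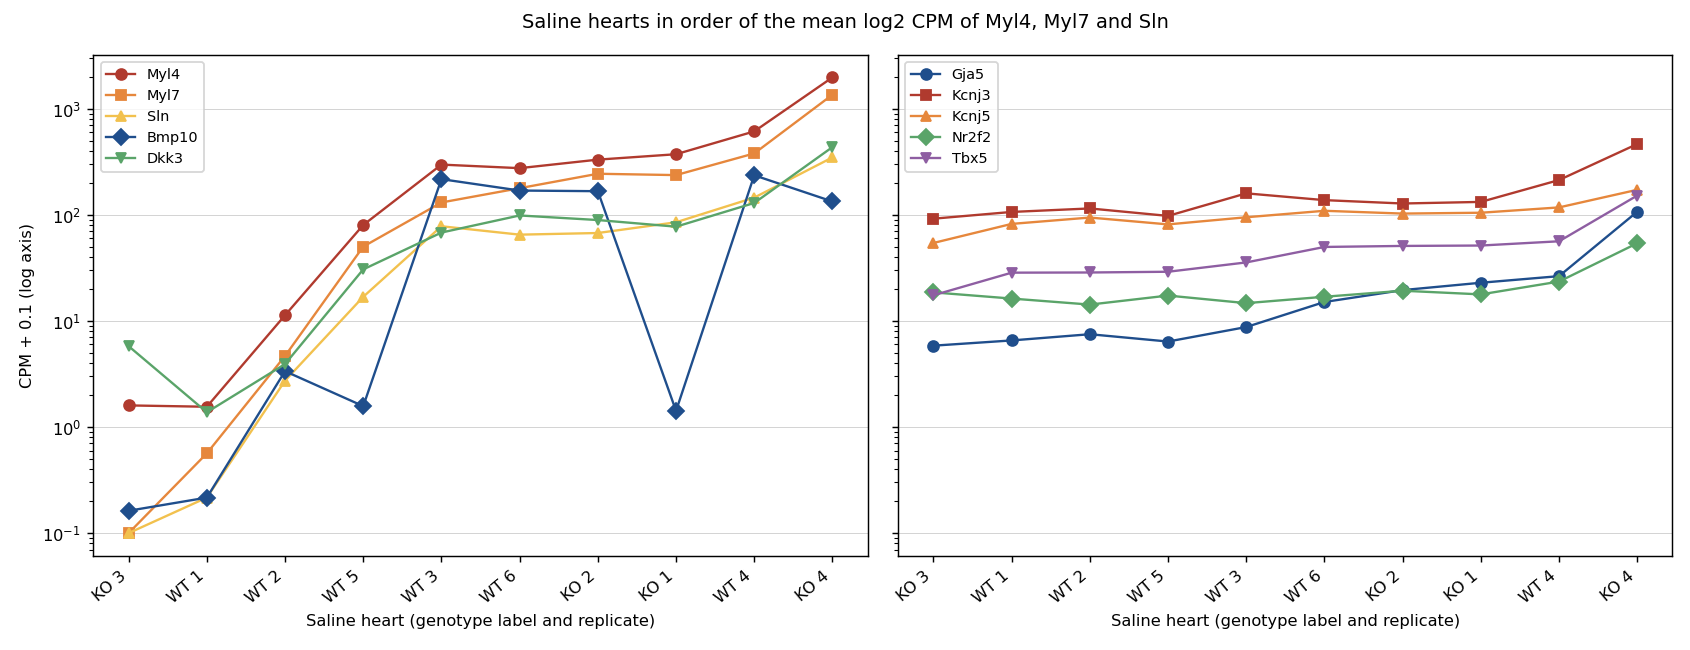
The 10 saline hearts from left to right by the mean log2 CPM of Myl4, Myl7 and Sln, with each gene as CPM + 0.1 on a log axis. Myl4, Myl7 and Sln climb together, Bmp10 drops in WT 5 and MCT1KO 1, and the channel and transcription factor genes climb mainly in the upper hearts.

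Which of the genes vary together was described by Pearson's r of log2 CPM (prior count 2) over the 10 saline hearts, without a p, since the genes were chosen for this pattern and MCT1KO saline 4 and the lowest hearts weigh on every pair. The median over 45 pairs was 0.813, with a range of 0.342 to 0.995. Over the other 15 hearts the median was 0.0771. Against the mean log2 CPM of Myl4, Myl7 and Sln (with the gene itself left out of its own mean), Sln had r = 0.998, Myl7 0.994 and Myl4 0.993. Dkk3 followed at 0.943, then Kcnj5 at 0.841, Tbx5 at 0.829, Bmp10 at 0.827, Gja5 at 0.765, Kcnj3 at 0.694 and Nr2f2 at 0.477. By rank the order changed. Tbx5 had Spearman's rho = 1.0 and Gja5 0.964, while Bmp10 had 0.600 and Nr2f2 0.636.

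Among the hearts high in Myl4, Bmp10 followed the other genes less closely. In the 7 saline hearts with Myl4 above 50 CPM, a limit chosen after the values had been seen, its r with that mean was 0.509 and its rho 0.0357. The 9 pairs that contain Bmp10 had a median r of 0.465 there, and the other 36 pairs 0.944. Leaving out WT saline 1 and MCT1KO saline 3, the hearts farthest from the median, left Bmp10 at r = 0.589 and Myl7 at 0.993. Within the 6 WT saline hearts Bmp10 had r = 0.905 and Nr2f2 0.475.

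**Figure D5:**
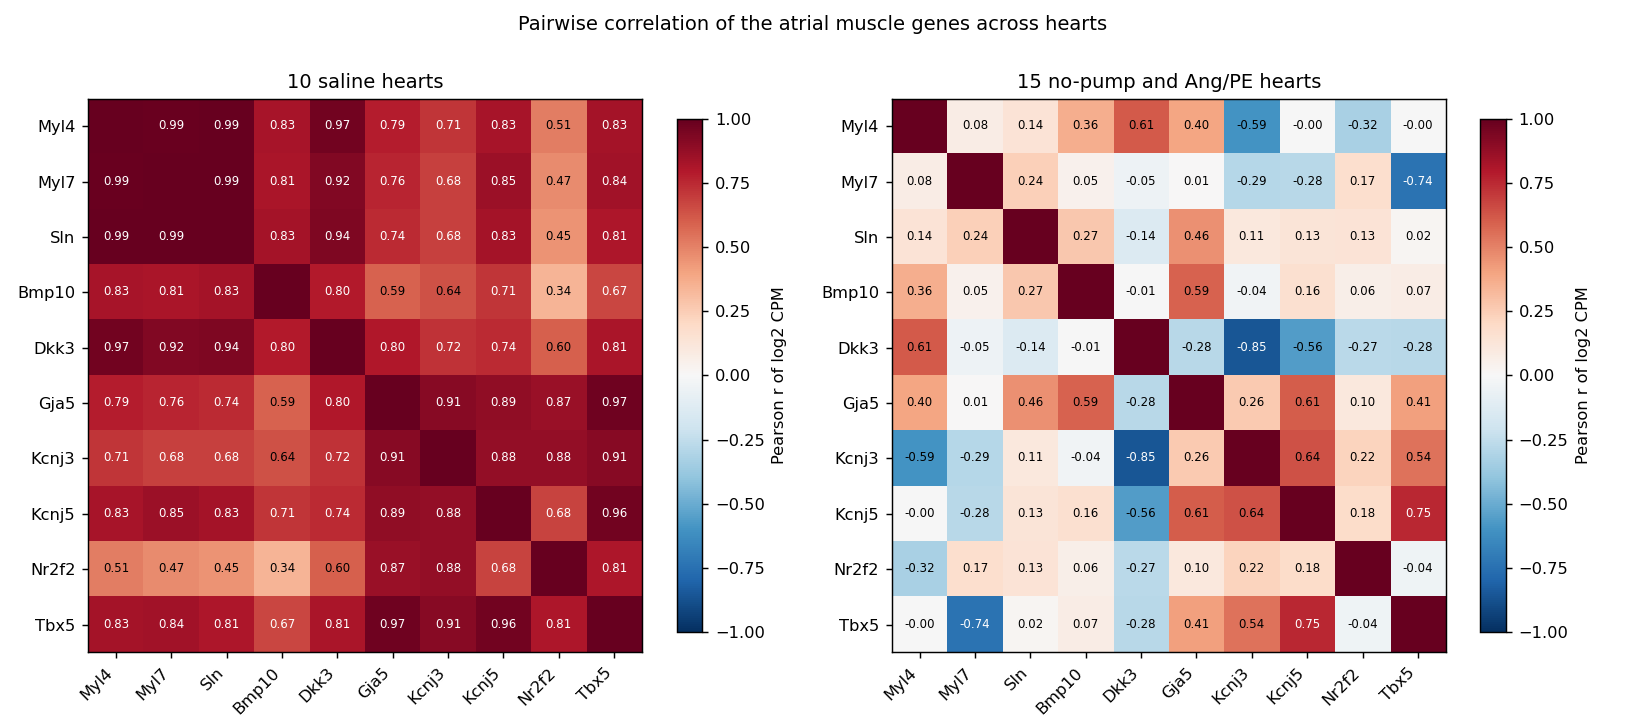
Pearson's r of log2 CPM between the 10 genes over the 10 saline hearts (left) and the 15 no-pump and Ang/PE hearts (right), on a colour scale from −1 to 1. The left panel is positive throughout, with the lowest value, 0.342, between Bmp10 and Nr2f2; the right panel has a median of 0.0771.

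Other genes followed the same hearts. Of 17672 tested genes outside the 10, 53 had r above 0.9 with the averaged log2 CPM of Myl4, Myl7 and Sln, and 41 had r below −0.9 over the 10 saline hearts. The most similar were Nppa (0.981), Mybphl (0.980), Tmem163 (0.970), Mt3 (0.967), Cilp2 (0.964), Sqle (0.957), Mospd3 (0.954), Clu (0.953), Klhl22 (0.95) and Upk1b (0.945). Nppa, the atrial natriuretic peptide, was at 44.5 CPM in WT saline 1 and 3701 CPM in MCT1KO saline 4, and at most 1687 CPM without that heart. Unlike Myl7 it was also high outside the saline group, at 20.4 to 5138 CPM. Mybphl, a myosin-binding protein of atrial muscle, ran from 0.187 to 227 CPM in saline hearts and was at most 0.837 CPM elsewhere. Klhl22 moved only from 21.8 to 28.3 CPM, so a high r can go with a small change.

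A list of 18 further atrial genes, 17 of them tested, had a median r of 0.856 with the same mean, and 9 of the 17 were above 0.8. Over all tested genes 1.92% were above 0.8. Without MCT1KO saline 4 the list's median r was 0.911, again with 9 above 0.8, beside 2.29% of all tested genes. Fgf12 reached 72.4 CPM in saline hearts (17.4 without MCT1KO saline 4) against at most 0.767 CPM elsewhere. Sbk3 reached 489.8 CPM (122 without that heart) against 21.6 CPM, and Hamp 15.97 CPM (3.27 without it) against 0.249 CPM. Kcna5, a potassium channel gene of the same list, had r = −0.727. It was at 10.2 to 40.6 CPM in saline hearts, highest in MCT1KO saline 3, and at 20.8 to 61.4 CPM in the other 15. Hamp, which encodes hepcidin, was at 3.14, 3.27 and 3.18 CPM in WT saline 3, 4 and 6 and at 0.397 and 1.27 CPM in WT saline 5 and MCT1KO saline 1, which were low in Bmp10 but not in Myl7. Atrial and ventricular muscle of the adult mouse both make Myh6, and its r was −0.0720.

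The genes nearest in pattern to Bmp10 itself, looked for after its values had been seen, were Igf2 (r = 0.972), Cd207 (0.963), Cxcl13 (0.932), Sfrp5 (0.929) and Mks1 (0.919). Sfrp5, a secreted frizzled-related protein, was at 1.47 CPM in WT saline 5 and 3.22 CPM in MCT1KO saline 1, against 7.57 to 19.2 CPM in the 5 hearts high in Bmp10. Igf2, Cd207, Cxcl13 and Mks1 stayed below 7 CPM in every saline heart. Of 9 genes of BMP10 signalling, Bmp10 among them, 8 were tested, with a median r of 0.159 with the mean of Myl4, Myl7 and Sln (0.102 without MCT1KO saline 4). The receptor gene Acvrl1 was at 30.2 to 51.1 CPM in saline hearts and 35.7 to 56.8 CPM in the other 15. Id1, a target gene of BMP signalling, was at 20.98 to 42.8 CPM and 16.3 to 46.6 CPM. Smad6, an inhibitor induced by the pathway, reached 26.9 CPM in MCT1KO saline 4 and 23.2 CPM without that heart, against at most 21.7 CPM in the other 15.

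Genes near absent elsewhere were those at or under 1 CPM in all 15 other hearts and at or above 10 CPM in a saline heart. There were 49 of them, and Myl7, Sln and Bmp10 were the 3 members among them. MCT1KO saline 4 was the highest heart for 48 of the 49, Bmp10 being the exception, and 9 genes met the limits without that heart. Beside the atrial genes Mybphl and Fgf12, and beside Tmem163, the set held genes of fat. Ucp1, the uncoupling protein of brown fat, reached 550 CPM, Plin1 257 CPM, Cidec 136 CPM and Adipoq 123 CPM in MCT1KO saline 4. Without that heart these 4 reached at most 11.4, 17.4, 7.81 and 7.39 CPM. Rbp4, Clstn3, Otop1, Tmem45b, Acvr1c, Slc27a2, Adrb3 and Ppp1r1b reached 36.5 to 48.1 CPM in MCT1KO saline 4. Besides Myl7, Sln and Ucp1 themselves, 37 of these genes were tested. By Spearman's rho with Ucp1 or with the averaged log2 CPM of Myl4, Myl7 and Sln over the 10 saline hearts, 27 of the 37 were closer to the average and 10 to Ucp1. Of the fat genes, Adipoq was closer to the average (0.915 against 0.791) and Plin1 to Ucp1 (0.902 against 0.891). Ucp1 was tied at 0 CPM in WT saline 1, 3 and 5. The count therefore does not sort atrial genes from fat genes.

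Fat and atrial genes overlapped in hearts but did not run in fixed proportion. The 10 tested fat genes had a median r of 0.688 with the mean of Myl4, Myl7 and Sln over the 10 saline hearts. Without MCT1KO saline 4 the median was 0.658, and no fat gene was above 0.8 either way. Ucp1 had rho = 0.791 and r = 0.663 with that mean over the 10 saline hearts. WT saline 3, with Myl7 at 131 CPM, had 0 counts of Ucp1 and Adipoq at 0.162 CPM, while WT saline 4 and MCT1KO saline 1 and 2 had Ucp1 at 8.0, 11.4 and 7.52 CPM. The summed level of the 12 fat genes was 2239 CPM in MCT1KO saline 4, 211 to 350 CPM in the other 9 saline hearts and 184 to 421 CPM in the other 15. Fabp4, which vessels also express, made up 143 to 375 CPM of it in the other 15. The part of fat in the atrial gene levels was not tested.

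Markers of other cell types moved with the same hearts to differing degrees, and each list is given with MCT1KO saline 4 and then without it. The 5 endocardial genes had a median r of 0.789 (0.778 without) and summed to 70.1 to 244 CPM in saline hearts (at most 138 without) against 72.4 to 103 CPM elsewhere. The 8 epicardial and mesothelial genes had a median r of 0.798 (0.77 without) and summed to 16.97 to 130 CPM (at most 50.6 without) against 13.2 to 43.5 CPM. Among them Upk3b reached 49.8 CPM, or 14.03 CPM without that heart. The 8 tested nodal genes had a median r of 0.557 (0.416 without). Hcn4, a pacemaker channel, reached 40.8 CPM in MCT1KO saline 4 and 23.5 CPM without it, against at most 21.4 CPM in the other 15, and nodal Shox2 reached 7.42 CPM and 1.57 CPM without it, against 1.32 CPM. The nodal genes Tbx3 (r = −0.471) and Smoc2 (r = −0.407) were instead highest in MCT1KO saline 3. The 8 smooth muscle genes had a median r of 0.562 (0.496 without). Myh11 reached 314 CPM in MCT1KO saline 4, but 57.1 CPM without it and at most 75.5 CPM elsewhere, while Des, which heart muscle also makes, had r = −0.186. The 3 tested genes of peripheral nerve had a median r of 0.616 (0.595 without) and the 7 genes of ventricular conduction fibres 0.237 (0.533 without).

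Other lists had medians below 0 over the 10 saline hearts: arterial endothelium (7 tested genes, −0.526, and −0.364 without MCT1KO saline 4), venous and lymphatic endothelium (7, −0.0897, and 0.278 without it) and blood (5, −0.202, and −0.17 without it). The lymph node and thymus list (4 tested genes, 0.438, and 0.189 without) was low, with Cd3e at most 1.12 CPM in any saline heart (0.654 without). Of the 2 tested cartilage genes (0.686, and 0.619 without), Comp was at 2.32 to 46.5 CPM in saline hearts and reached 179 CPM elsewhere. No lung gene was tested, and their sum was at most 0.628 CPM in any heart. The 4 tested skeletal muscle genes had a median r of 0.640 (0.666 without), but the defining fast myosins Myh4, Myh1 and Myh2 were at most 0.158 CPM in any heart. The 10 tested ventricular genes had a median r of −0.270, but 0.169 without MCT1KO saline 4. They summed to 3774 CPM in that heart against 11890 to 15090 CPM over the WT saline hearts. By rank over the 10 saline hearts, this sum had rho = −0.867 with the mean of Myl4, Myl7 and Sln. The 4 ventricular genes of largest range had rho = −0.891 (Myl2), −0.697 (Myl3), −0.358 (Lbh) and −0.285 (Irx4). Whether these lists bear on the atrial genes was not tested.

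The genotypes were compared within saline hearts. The genes were not chosen by genotype, but they were chosen for varying among these same hearts. That spread enters the standard errors, so the test does not stand apart from the choice. None of the 10 genes was called by edgeR's quasi-likelihood test at a Benjamini-Hochberg adjusted p below 0.05, and 0% of the 17682 genes were called. At an unadjusted p below 0.05 edgeR had 3014 genes. DESeq2 called 146 genes and edgeR with the log2 CPM of Xist as a covariate 82, none of them among the 10. The lowest p of the 10 genes was that of Gja5, at 1.73 ± 0.521 (log2 fold change, MCT1KO minus WT, ± SE, adjusted p = 0.154, edgeR). Nr2f2 differed by 0.68 ± 0.236 (adjusted p = 0.183, edgeR) and Tbx5 by 0.84 ± 0.364 (adjusted p = 0.251, edgeR). Myl7 differed by 1.89 ± 1.11, with a 95% interval of −0.42 to 4.20. Without MCT1KO saline 4 the 4 log2 differences were 0.46 for Gja5, 0.12 for Nr2f2, 0.08 for Tbx5 and 0.38 for Myl7. Without MCT1KO saline 3, the heart lowest in Myl7, Gja5 was called at 2.09 (adjusted p = 0.029, edgeR) among 239 genes. Myl7 spanned 0 to 1355 CPM among MCT1KO hearts and 0.465 to 379 CPM among WT hearts. The WT range thus lay inside the MCT1KO range, and only MCT1KO saline 4 lay above all WT hearts.

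Hearts without a pump and hearts under Ang/PE gave the genotype comparison where Myl4, Myl7, Sln and Bmp10 are low. None of the 10 genes was called in either (0% of all genes called in each; 2156 and 1223 genes at an unadjusted p below 0.05 in edgeR, 24 and 5 called by DESeq2). Without a pump Myl4 differed by 0.02 (95% interval −3.92 to 3.95) and Dkk3 by −0.21 (−3.10 to 2.68) on the log2 scale, MCT1KO minus WT. Gja5 differed by 0.15 (−1.25 to 1.55), Kcnj3 by 0.17 (−0.73 to 1.07), Kcnj5 by 0.25 (−0.28 to 0.77), Nr2f2 by 0.27 (−0.32 to 0.86) and Tbx5 by 0.37 (−0.55 to 1.3). Under Ang/PE the differences were 0.92 for Myl4 (−2.87 to 4.71), 0.85 for Dkk3 (−1.74 to 3.44), 0.69 for Gja5 (−0.76 to 2.14), −0.18 for Kcnj3 (−1.04 to 0.69), 0.04 for Kcnj5 (−0.47 to 0.54), −0.09 for Nr2f2 (−0.67 to 0.49) and 0.20 for Tbx5 (−0.71 to 1.11). Myl7, Sln and Bmp10 were too low in both settings for a fold. For Sln, Bmp10 and Myl7 a difference was not detectable at this depth.

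Ang/PE was compared with no pump, leaving saline hearts out of the contrast. They stayed in the fit of all 25 hearts, so their spread still enters the standard errors and p-values. In WT hearts none of the 10 genes was called and 0% of all genes were (1595 at an unadjusted p below 0.05 in edgeR, 25 called by DESeq2). In MCT1KO hearts none of the 10 was called, beside 0.503% of all genes, 44 higher and 45 lower. These 89 calls became 1 without MCT1KO no pump 2 and 11 with the log2 CPM of Xist as a covariate. Xist was above 100 CPM in 0 of the 3 MCT1KO hearts without a pump and in 4 of the 5 under Ang/PE. Dkk3 had the largest difference of the genes read in every group, 2.42 ± 1.36 in MCT1KO hearts (adjusted p = 0.481, edgeR) and 1.36 ± 1.31 in WT hearts (adjusted p = 0.805, edgeR). In MCT1KO hearts it was 4.0 without MCT1KO no pump 3. Kcnj3 was at −0.65 ± 0.408 in MCT1KO hearts (adjusted p = 0.546, edgeR) and −0.30 ± 0.435 in WT hearts, and with the Xist covariate it was at −0.11 in MCT1KO hearts. The difference of these steps between genotypes called none of the 10 genes and 0% of all (960 at an unadjusted p below 0.05 in edgeR, 5 called by DESeq2). The interaction was 1.06 ± 1.85 for Dkk3. In fits of the compared groups alone, the lowest adjusted p of the 10 genes was 0.46 in WT and 0.136 in MCT1KO hearts (edgeR). For the interaction it was 0.898 (edgeR), and none of the 10 was called in these fits.

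The contrasts with saline hearts are the ones that chose the genes, and their counts are given without reading anything from them. Between saline and no pump in WT hearts, Myl4, Myl7, Sln and Bmp10 were called higher (2.39% of all genes were), and the median log2 difference over the 10 genes was 2.15. In MCT1KO hearts 0 were called higher (0% of all genes), with a median of 3.77. The calls over all genes turned on single hearts: in both directions they numbered 1168 in WT hearts and 59 without WT no pump 3, and 1 in MCT1KO hearts and 628 without MCT1KO saline 3. Between Ang/PE and saline, 0 of the 10 were called lower in WT hearts (0.00566% of all genes), with a median of −1.73. In MCT1KO hearts 9 were called lower, all but Dkk3 (2.7% of all genes), with a median of −2.55. Without MCT1KO saline 4 only Myl7 was, and the calls over all genes in both directions fell too, from 789 to 46. The WT and MCT1KO contrasts within each step use separate hearts, but both steps share the saline hearts.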

How the data were processed

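RNA from 25 mouse hearts was sequenced after ribosomal RNA depletion with strand-marking libraries, per the labels' protocols. The authors deposited 1 table of raw read counts per gene. The submitters' processing notes name cutadapt 1.16, STAR 2.7.9a, featureCounts 1.6.3, DESeq2 1.42.1 and the builds GRCm39 and mm39. The annotation release and the strand setting of the counting are not given in the sources used here, so reads of overlapping or antisense genes may be shared. All columns were matched to samples by the titles.

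Counts were tested with edgeR 4.0.16 (TMM, filterByExpr, robust glmQLFit, glmQLFTest, two-sided) in R 4.3.3, with 1 model of 6 groups, 17682 genes, 19 residual degrees of freedom and Benjamini-Hochberg adjustment over all genes at 0.05. The common biological coefficient of variation was 0.196. CPM uses TMM-scaled library sizes. Correlations use log2 CPM with a prior count of 2. Lengths are those of the principal transcript in GENCODE M21, and promoter windows are from RefSeq. Scripts were tested on simulated data.

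The members and the 18 gene lists were chosen with earlier results of these data known. The text names the members, Slc16a1, Xist, up to 4 genes per list with the largest log2 range over saline hearts, the 15 highest non-member genes near absent elsewhere and the 10 genes most correlated with the mean of Myl4, Myl7 and Sln. Genes outside this rule, such as Chrm2, Rgs4, Gnb5, Kcna5, Tbx3, Smoc2, Des, Myh6, Fabp4, Acvrl1, Tpm3-rs7 and those like Bmp10, were named after their values were seen. Alternatives were RLE factors, DESeq2 1.42.0, no filter, only the compared groups, a replicate block, a non-robust fit, an Xist covariate, other limits and leaving out each heart. Replicates are separate hearts. Their libraries differed by more than sampling noise, with a chi-square per degree of freedom of at least 3.33 over 43 pairs.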

Additional observations from a re-analysis of the deposited data

Results flagged for a closer look

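Of 40 checks for a heart far from its group, over the 10 genes in the 4 groups of 4 to 6 hearts, 1 stood out, and chance gives about 2. Nr2f2 in MCT1KO saline 4 was at a log2 CPM of 5.75 (53.9 CPM), while the other 3 hearts of the group were at 17.7 to 19.2 CPM. In the remaining genes that heart was also highest of its group, except for Bmp10, but the gap relative to the range did not reach the limit of the check. For Kcnj3 it was at 465 CPM, and the other 3 hearts were at 91.8 to 132 CPM.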

How the results depend on the processing

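None of the results on the members turned its direction under the alternative runs followed here. List medians could: without MCT1KO saline 4 the median r of the ventricular list went from −0.270 to 0.169. That of venous and lymphatic endothelium went from −0.0897 to 0.278. The count of genes near absent elsewhere was 49 and changed with the limits: 30 at 0.5 CPM or less elsewhere, 68 at 2 CPM or less, 80 at 5 CPM or more in a saline heart and 26 at 20 CPM or more. Leaving out each saline heart gave 9 to 49, with 9 without MCT1KO saline 4. The median correlation of the members was 0.813. It was 0.855 by rank, 0.772 in WT saline hearts alone and 0.765 to 0.837 with each heart left out. With each heart left out, 0 to 1 member was called between genotypes in saline hearts, the 1 being Gja5 without MCT1KO saline 3. In the other 5 tested comparisons 0 were called. The median log2 difference of the members ranged from 1.76 to 2.56 (saline minus no pump, WT), 2.44 to 4.49 (MCT1KO), −1.92 to −1.30 (Ang/PE minus saline, WT) and −2.93 to −1.22 (MCT1KO). Without MCT1KO saline 4 the genotype differences of Gja5, Nr2f2, Tbx5 and Myl7 were 0.46, 0.12, 0.08 and 0.38.

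Same-numbered hearts are different animals, and the 16 correlations of their deviations ran from −0.228 to 0.405 with a median of −0.0445, so the numbers were not taken as pairs. With the replicate number as a block, 0 members were called in each of the 6 comparisons, Gja5 in saline hearts was at 1.44 (adjusted p = 0.0807, edgeR) and 115 genes were called in that comparison against 0 without the block. DESeq2 called 146, 24, 5, 25, 385 and 5 genes in the 6 comparisons, in the order of the report, against 0, 0, 0, 0, 89 and 0 in edgeR, and 0 members in each. At the depths here, Myl7, Sln and Bmp10 outside saline hearts rest on 0 to 16 counts.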
